A study of Mus musculus with 48 samples.

Results

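The liver and the jejunum of sham-operated mice were compared gene by gene with the 4 liver and 4 jejunum mRNA-Seq libraries of the sham group. Genes were included when the same Ensembl identifier had a complete line in the liver and the jejunum tables, and each identifier was counted once. This rule kept 9618 of the 13246 genes listed in either table. A further 2225 genes were listed in the liver table only and 1403 in the jejunum table only. The whole series holds 48 libraries of 6 tissues, collected 9 days after Roux-en-Y gastric bypass (RYGB) or sham surgery. All mice were male C57Bl6 with obesity induced by a high fat diet, so the sham mice are obese animals recovering from an operation and not lean controls. After surgery they received a liquid elemental diet for 9 days, and the labels also name a transfer back to the high fat diet. They were killed at 10 in the morning after a fast. Liver tissue went into a stabilizing solution, whereas jejunal villi were scraped off after 5 minutes in ice-cold EDTA, which separates epithelium from the wall below. The same contrast in 4 liver and 3 jejunum libraries of the RYGB group is given at the end.

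Hepatocytes and enterocytes are both polarized cells that handle nutrients, and both arise from gut endoderm. Enterocytes digest sugars and peptides at the brush border, take up their products and pack dietary fat into chylomicrons. Hepatocytes receive the products through the portal vein, store and release glucose, make urea and bile acids, and secrete very low density lipoproteins. Both cell types also oxidize, conjugate and pump out foreign compounds, the liver for the circulation and the jejunum for what arrives with food.

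Values were CPM, the read count of a gene scaled to a fixed total per library, deposited in 1 table per tissue. Each library had been scaled to its own total, and the listed genes of a library summed to between 985099 and 989954 CPM in the liver and between 998151 and 998503 CPM in the jejunum. CPM is not corrected for gene length, so levels are compared between tissues for the same gene and not between genes. Differences are given as log2(CPM + 1) of liver minus jejunum, a positive value being higher in liver, and this scale understates the change of low genes. Values of single libraries are given in the order 1 to 4, and pairs of means are liver against jejunum, as mean ± SD (n = 4) where an error is given. A value with SE in parentheses is the log2 difference with its standard error, and its adjusted p is from limma. A gene was called when limma gave a Benjamini-Hochberg adjusted p under 0.05 and the difference was at least 2-fold. A gene was termed level-matched when it was not called and the 95% confidence interval of its log2 difference lay between -1 and 1. The labels do not say that the libraries came from separate mice, so p-values measure only the spread between these libraries. Tissue, table, way of collection and sequencing lane cannot be told apart here. The jejunum sham libraries shared 1 lane and the liver sham libraries were spread over 3. A gene missing from a table is reported as not listed, with no fold change.

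The libraries carried the markers of their labels. The 10 hepatocyte markers summed to between 94565 and 111578 CPM in the liver, whereas 9 of them were not listed in the jejunum and the listed one, Tat, gave at most 0.7 CPM there. The 10 enterocyte markers summed to between 43494 and 57066 CPM in the jejunum and to between 176 and 224 CPM in the liver, where 7 were not listed. The jejunum also held markers of goblet cells (5972 to 8885 CPM), enteroendocrine cells (279 to 516 CPM), Paneth cells (33.3 to 68.5 CPM), tuft cells (35.5 to 60.1 CPM) and intraepithelial lymphocytes (96.4 to 261 CPM). The liver held markers of Kupffer cells (364 to 714 CPM) and of erythroid cells (247 to 919 CPM), none of which were listed in the jejunum. Markers of sinusoidal endothelium reached 76.7 to 220 CPM in the liver and 4.5 to 7.3 CPM in the jejunum. Those of fibroblasts and stellate cells reached 329.7 to 437.7 CPM in the liver and 27.4 to 41.4 CPM in the jejunum. Smooth muscle markers reached 15.9 to 31.1 CPM in the liver and were not listed in the jejunum, and pancreatic acinar markers were listed in neither tissue. In bulk tissue, fewer cells of a type and less RNA per cell cannot be told apart.

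The same genes were far from level between the tissues. Libraries of a tissue resembled each other closely, with Pearson's r across genes between 0.982 and 0.989 within the liver, between 0.964 and 0.986 within the jejunum, and between 0.508 and 0.568 between the tissues. These correlations are across genes, which are not independent replicates. Of 9608 genes averaging 1 CPM or more, 2402 (25%) were called higher in liver and 2077 (21.6%) higher in jejunum, while 3461 (36%) were level-matched and 1668 were neither. The 4 liver and 4 jejunum libraries did not overlap for 6767 genes (70.4%). At least 10-fold differences were found for 353 genes toward the liver and 365 toward the jejunum, and at least 100-fold differences for 46 and 41. Scaling all libraries to a common median ratio moved the median log2 difference of all genes from 0.06 to 0.28 and the share of calls that were higher in liver from 53.6% to 62.7%.

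Among genes in both tables, the largest differences were led by genes of secreted plasma proteins in the liver and of the brush border and epithelium in the jejunum. Genes listed in 1 table only could not enter this ranking. C3, the central component of complement, gave 6999, 5636, 7000.1 and 6655 CPM in the liver and 0.5, 5.8, 1.8 and 1.1 CPM in the jejunum (log2 difference 11.20 ± 0.37 SE, adjusted p = 5e-10). The other leading liver genes were Apoe, Apoa2, Fn1, which encodes plasma fibronectin, and Serpinc1, which encodes antithrombin, with log2 differences of 10.94, 10.89, 10.31 and 9.44. At the opposite end was Slc5a1, the sodium-coupled glucose transporter of the brush border, with 1.4, 1.5, 1.1 and 1.4 CPM in the liver and 4791, 4640.3, 4823 and 3959 CPM in the jejunum (-10.92 ± 0.12 SE, adjusted p = 8.19e-13). It was followed by Smim24 (-10.38), the brush border peptidase Ace (-10.24), the epithelial adhesion gene Epcam (-9.60) and the class I histocompatibility gene H2-Q2 (-9.52). These 10 genes were taken from the called genes whose libraries did not overlap, and 70.4% of all genes tested did not overlap. Reads of H2-Q2 may be shared with its close relatives, so its value is uncertain. H2-Q2 was listed for the liver through its RYGB libraries, as given below.

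**Figure D1:**
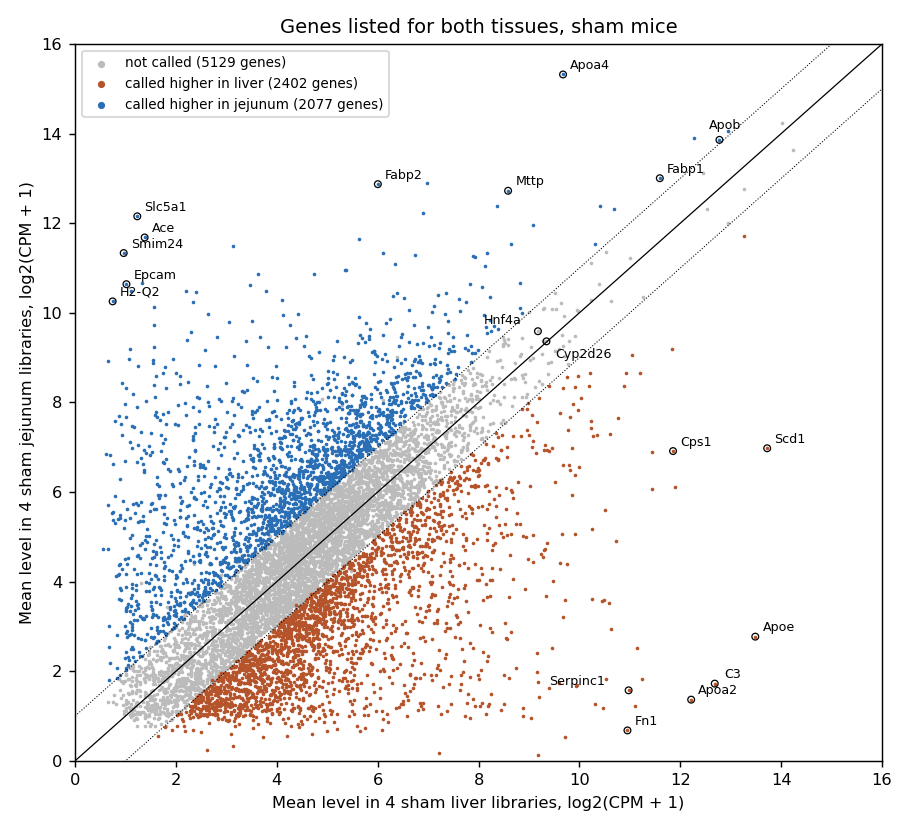
Mean level of each of the 9608 genes tested in the sham liver (horizontal axis) and the sham jejunum (vertical axis), both as log2(CPM + 1), with each point a gene and colour giving the call, the solid line marking equal levels and the dotted lines a 2-fold difference. Called genes spread far from the line of equal levels on both sides, and Hnf4a and Cyp2d26 lie near it at a high level.

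The promoters of 4 genes are shown for the extremes and the overlap. Alb, which encodes serum albumin, was listed only in the liver (72049, 63139, 70618 and 80048 CPM). Sis, the sucrase-isomaltase of the brush border, was listed only in the jejunum (12209, 11828, 14982 and 8583 CPM). Fabp1, a fatty acid binding protein of the cytosol, and Apob, the structural protein of chylomicrons and very low density lipoproteins, were high in both. The 250 bases before the RefSeq start site of each gene are given from GRCm38.p6, a patch release of the build named in the submitters' processing notes, in the direction of transcription. Capitals mark letters that match TTTATNG, a form of the site bound by the intestinal factor CDX2, or TTGCNNAA, a form of the site bound by C/EBP factors, on either strand. The windows are chr5:90460620-90460869 on the plus strand for Alb, chr3:72967864-72968113 on the minus strand for Sis, chr6:71199629-71199878 on the plus strand for Fabp1 and chr12:7977427-7977676 on the plus strand for Apob.
Alb: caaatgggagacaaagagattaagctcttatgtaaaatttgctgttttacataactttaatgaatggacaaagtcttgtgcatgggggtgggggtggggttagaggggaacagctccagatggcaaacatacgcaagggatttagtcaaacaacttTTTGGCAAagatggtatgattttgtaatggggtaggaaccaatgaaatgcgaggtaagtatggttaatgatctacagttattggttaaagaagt
Sis: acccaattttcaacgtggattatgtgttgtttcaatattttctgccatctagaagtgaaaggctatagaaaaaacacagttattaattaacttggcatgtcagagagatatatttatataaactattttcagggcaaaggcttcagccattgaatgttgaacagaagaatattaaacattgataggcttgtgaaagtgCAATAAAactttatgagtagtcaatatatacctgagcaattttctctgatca
Fabp1: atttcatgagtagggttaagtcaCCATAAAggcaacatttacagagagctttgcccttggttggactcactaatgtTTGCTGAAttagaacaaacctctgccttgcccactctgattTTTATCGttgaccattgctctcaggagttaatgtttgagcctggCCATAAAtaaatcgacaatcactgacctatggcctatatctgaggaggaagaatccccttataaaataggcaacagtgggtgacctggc
Apob: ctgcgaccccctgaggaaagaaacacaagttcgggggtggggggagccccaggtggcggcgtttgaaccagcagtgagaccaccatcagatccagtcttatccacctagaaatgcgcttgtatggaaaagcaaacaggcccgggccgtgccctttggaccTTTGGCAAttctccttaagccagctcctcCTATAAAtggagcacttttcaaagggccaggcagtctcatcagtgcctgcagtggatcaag
The Alb window held 1 C/EBP match, 94 bases before the start site, and no CDX2 match. The Sis window held 1 CDX2 match, 52 bases before the start site, and no C/EBP match. The Fabp1 window held 3 CDX2 matches, at 227, 133 and 89 bases before the start site, and 1 C/EBP match at 174 bases. The Apob window held a C/EBP match at 90 bases and a CDX2 match at 61 bases, the latter overlapping a TATAAA sequence. A match is a run of letters and was not tested as a binding site.

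Genes of known function were grouped in 22 lists of pathways and enzyme families. Of 562 members, 323 were in both tables, 127 in the liver table only, 46 in the jejunum table only and 65 in neither, and 1 symbol was absent from the reference. Among the 323 members, 128 were called higher in liver, 96 were called higher in jejunum, 45 were level-matched and 54 were neither, beside 25%, 21.6% and 36% over all genes. The counts of each list below are to be read beside these shares of all genes. The plot shows the classes of each list.

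**Figure D2:**
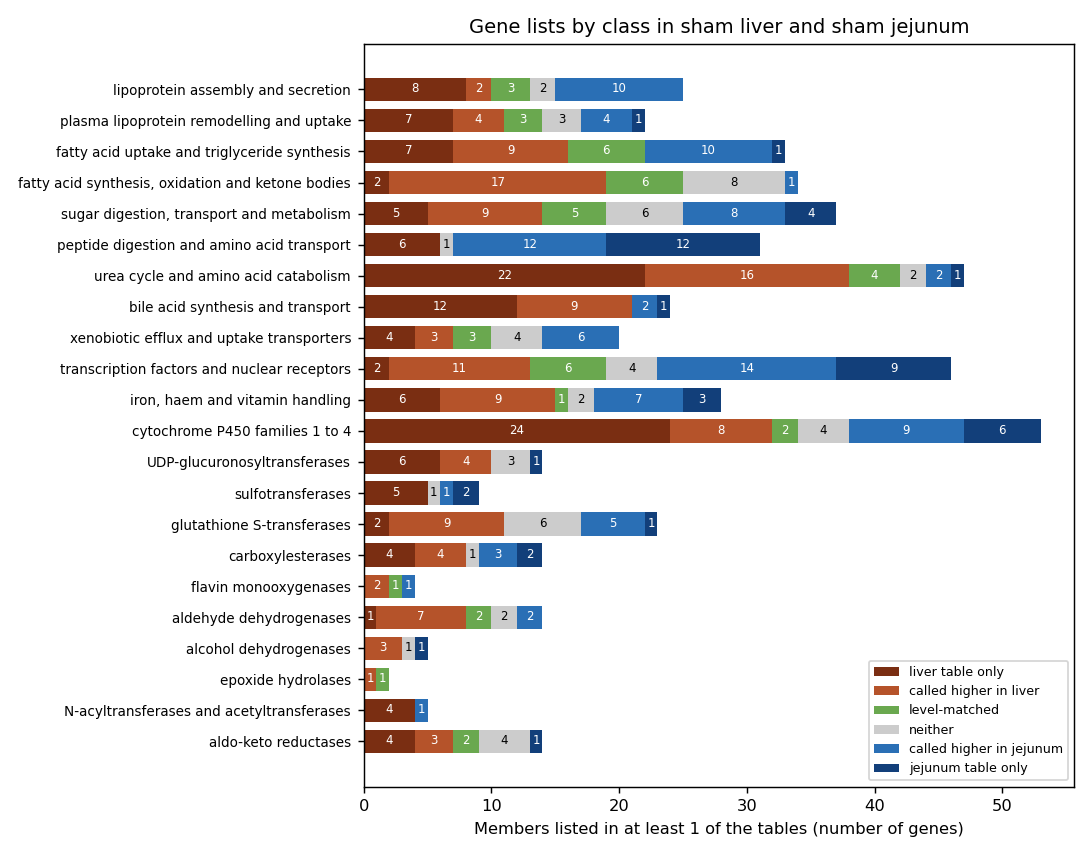
Members of each pathway list or enzyme family by class, as stacked bars of the number of genes: called higher in liver, called higher in jejunum, level-matched, neither, or listed in 1 table only. Peptide digestion and amino acid transport has 12 members called higher in jejunum and 12 listed there only, while the urea cycle and amino acid catabolism list has 16 called higher in liver and 22 listed there only.

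Lipoprotein assembly genes were found in both tissues, and most of those in both tables were called higher in jejunum. Of 25 members, 17 were in both tables and 8 were listed in the liver only. Of the 17, 10 were called higher in jejunum and 2 higher in liver, 3 were level-matched and 2 were neither. The median log2 difference of the 17 was -1.60 against 0.06 over all genes. Apob gave 6709, 6384, 6199 and 8756 CPM in the liver and 20606, 10929, 18156 and 9776 CPM in the jejunum (-1.03 ± 0.29 SE, adjusted p = 0.00767). The values did not overlap, but the difference fell under 2-fold with median-ratio scaling (-0.79, adjusted p = 0.0325) and quantile normalization (-0.95, adjusted p = 0.00948) and without liver library 2 or 3 or jejunum library 1 or 3 (-0.99 to -0.84). Mttp, which loads lipid onto the growing apolipoprotein B particle, gave 347, 421, 375 and 389.7 CPM in the liver and 5140.2, 8180.2, 7570.4 and 6153 CPM in the jejunum (-4.12 ± 0.19 SE, adjusted p = 5.49e-09). All 4 jejunum libraries lay far above the liver libraries. Tm6sf2, needed to enrich the particles with triglyceride, moved the same way (33.8 ± 3.52 against 493 ± 5.38 CPM; -3.83 ± 0.12 SE, adjusted p = 3e-10). Apobec1, whose enzyme edits the Apob transcript into its short intestinal form, was 20.5 ± 1.13 against 82.3 ± 20.4 CPM (-1.93 ± 0.16 SE, adjusted p = 8.53e-07).

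The exchangeable apolipoproteins fell into separate patterns. Apoa4, carried by chylomicrons, gave 603, 661, 1389.6 and 612 CPM in the liver and 39146, 37520.1, 29793 and 57052 CPM in the jejunum (-5.70 ± 0.31 SE, adjusted p = 2.58e-08), and all liver libraries lay below all jejunum libraries. Apoa1, the main protein of high density lipoprotein, was 4937 ± 1885 against 15226 ± 6043 CPM (-1.62 ± 0.36 SE, adjusted p = 0.00173). Apoc2, the cofactor of lipoprotein lipase, was 288 ± 88.5 against 2576 ± 707 CPM (-3.17 ± 0.25 SE, adjusted p = 5.75e-07). Apoc3, an inhibitor of that lipase, overlapped between the tissues, with 1776, 1535, 1618 and 1398 CPM in the liver and 1295, 1007, 738 and 1884 CPM in the jejunum and a log2 difference of 0.44 (95% interval -0.13 to 1.01). The opposite extreme was Apoe, the ligand for remnant uptake, with 10769, 9341, 14546 and 11243 CPM in the liver and 2.8, 3.8, 3.1 and 13.6 CPM in the jejunum (10.94 ± 0.37 SE, adjusted p = 6.24e-10). Apoa2, a second protein of high density lipoprotein, was 4754 ± 733 against 1.57 ± 0.79 CPM (10.89 ± 0.21 SE, adjusted p = 1.8e-11). The 8 members listed in the liver only included Apoc1 (2639 ± 408 CPM), Apoh (2019 ± 179 CPM) and Apof (904 ± 111 CPM) (SD, n = 4). Of 10 genes of particle assembly and export from the endoplasmic reticulum, 6 were called higher in jejunum, among them the export receptor Surf4 (-1.62), with a median log2 difference of -1.61 over the 10. The other members included Sar1a, Cideb and Mia2, which were level-matched, with log2 differences of 0.51, -0.42 and -0.44.

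**Figure D3:**
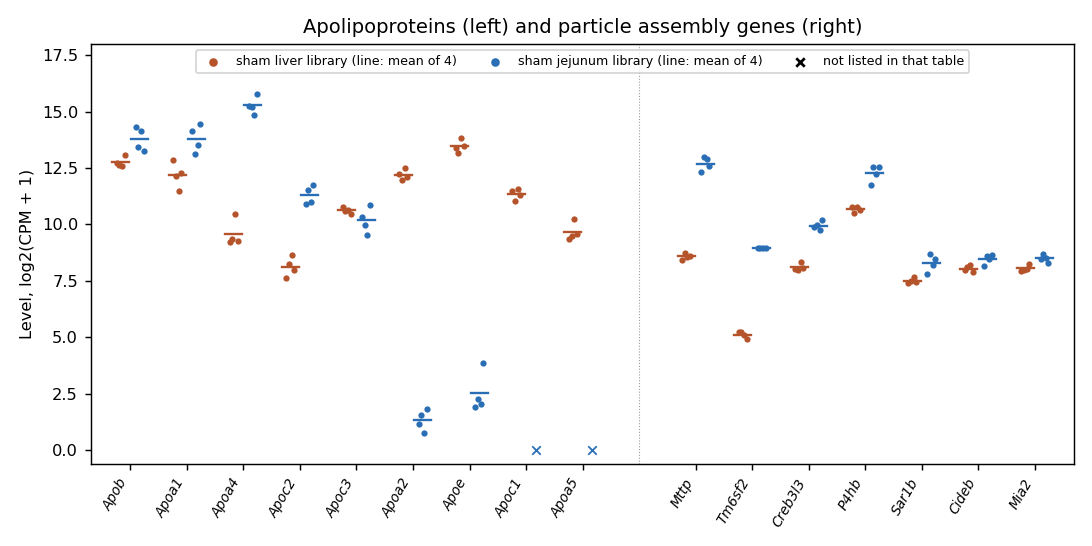
Level of lipoprotein genes in each sham library as log2(CPM + 1) on the vertical axis, liver and jejunum side by side, with each point a library, lines at the mean of 4 and a cross where a gene was not listed. Mttp and Apoa4 lie higher in all 4 jejunum libraries, Apoe and Apoa2 lie higher in all 4 liver libraries, and the Apoc3 points overlap.

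Once released, lipoproteins are remodelled in plasma and taken up mainly by the liver, and cholesterol is returned to bile or gut lumen. Of 22 genes of these steps, 14 were in both tables, with 4 called in each direction, 3 level-matched and 3 neither. The counts of called genes were near the shares of all genes tested, 25% higher in liver and 21.6% higher in jejunum. Scarb1, the high density lipoprotein receptor, gave 173, 160.1, 163 and 187 CPM in the liver and 4.6, 41.5, 5.5 and 6.4 CPM in the jejunum (4.05 ± 0.52 SE, adjusted p = 2.83e-05). The groups did not overlap, although jejunum library 2 stood above the others. The plasma enzymes Lcat (327 ± 53.8 CPM) and Lipc (157 ± 35.4 CPM) were listed in the liver only. The sterol exporters lay on the jejunal side. Abcg5 gave 67.8, 54.2, 95.6 and 81.6 CPM in the liver and 960.4, 699, 988 and 1071 CPM in the jejunum (-3.63 ± 0.20 SE, adjusted p = 2.35e-08), and its partner Abcg8 gave 68.1 against 724 CPM (-3.40 ± 0.20 SE, adjusted p = 4.62e-08). Soat2, which esterifies cholesterol for secretion, was 35.8 ± 4.70 against 394 ± 72.5 CPM (-3.41 ± 0.16 SE, adjusted p = 9e-09), and Sort1 was 21 ± 5.35 against 104 ± 24.8 CPM (-2.26 ± 0.21 SE, adjusted p = 1.73e-06). Npc1l1, the luminal cholesterol importer, was listed only in the jejunum, with 2205, 1000.5, 2159 and 1597 CPM. Abca1, the exporter that starts high density lipoprotein, was level-matched (261 ± 28.5 against 238 ± 97.8 CPM; 95% interval -0.36 to 0.81).

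Fatty acid uptake and triglyceride synthesis had members of the same families called in opposite directions. Of 34 genes, 25 were in both tables, with 9 called higher in liver, 10 called higher in jejunum and 6 level-matched. Fabp2, the intestinal fatty acid binding protein, gave 44.1, 69.5, 73.4 and 65.5 CPM in the liver and 3905, 9518, 8073 and 8463 CPM in the jejunum (-6.82 ± 0.28 SE, adjusted p = 2.68e-09). Fabp1 gave 2284, 3637, 2964 and 3471 CPM in the liver and 3609, 14000.0, 5990.4 and 9248 CPM in the jejunum (-1.26 ± 0.37 SE, adjusted p = 0.00977). The Fabp2 groups were separate, whereas those of Fabp1 overlapped at jejunum library 1, and the Fabp1 difference fell under 2-fold with quantile normalization (-0.96, adjusted p = 0.0394) and without jejunum library 2 (-0.94, adjusted p = 0.0202). Dgat1, the final enzyme of triglyceride synthesis, was 20.4 ± 3.55 against 1006 ± 68.8 CPM (-5.57 ± 0.14 SE, adjusted p = 8.25e-11), whereas Dgat2, the other enzyme of that step, was level-matched (450.4 ± 35.4 against 523 ± 89.0 CPM; 95% interval -0.54 to 0.13). Slc27a4, a fatty acid transport protein, was 40.4 ± 6.75 against 1988 ± 332 CPM (-5.58 ± 0.17 SE, adjusted p = 2.67e-10). Mogat2, the enzyme that re-esterifies absorbed monoglyceride, was listed only in the jejunum (454, 544, 540.2 and 536 CPM). On the liver side, Gpam, which starts glycerolipid synthesis in mitochondria, was 226 ± 117 against 2.65 ± 1.19 CPM (5.86 ± 0.37 SE, adjusted p = 8.72e-08), Acsl4 was 89.5 ± 19.1 against 1.40 ± 1.08 CPM (5.31 ± 0.26 SE, adjusted p = 1.08e-08) and Lpin1, a phosphatidate phosphatase, was 56.6 ± 16.6 against 1.43 ± 0.72 CPM (4.55 ± 0.26 SE, adjusted p = 2.97e-08). Agpat2, Agpat3 and Lpin2 were level-matched with log2 differences of -0.26, 0.37 and -0.21. Slc27a5, the bile acid and fatty acid ligase (1037 ± 145 CPM), and the carboxylesterases Ces3a (1552 ± 332 CPM) and Ces3b (289 ± 32.2 CPM) were listed in the liver only.

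De novo synthesis of fatty acids stood on the liver side. Of 34 genes of synthesis, oxidation and ketone bodies, 32 were in both tables, of which 17 were called higher in liver and 1 higher in jejunum, with a median log2 difference of 1.31. Of the 10 synthesis genes tested, 8 were called higher in liver, with a median of 4.37. Fasn, the fatty acid synthase, gave 1050.4, 1993, 547 and 1242 CPM in the liver and 7.5, 23.0, 9.3 and 5.4 CPM in the jejunum (6.67 ± 0.43 SE, adjusted p = 1.01e-07). Scd1, the stearoyl-CoA desaturase, gave 11755, 22110.2, 818 and 19377 CPM in the liver and 22.3, 366, 73.0 and 38.4 CPM in the jejunum (6.83 ± 1.06 SE, adjusted p = 0.000125). The groups were separate for both genes, although liver library 3 had a low level of Scd1. Elovl5 (6.03) and Acacb (5.01), which elongate fatty acids and make malonyl-CoA, were also called higher in liver. Srebf1, the transcription factor of this pathway, was nevertheless level-matched (307 ± 24.6 against 376 ± 94.9 CPM; 95% interval -0.67 to 0.15).

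Of 16 oxidation genes tested, 5 were called higher in liver, none higher in jejunum and 5 were level-matched, with a median log2 difference of 0.27. The counts higher in liver and level-matched were near the shares of all genes tested, 25% and 36%, beside 21.6% higher in jejunum. Hadha, Cpt2, Ehhadh and Slc25a20, which encode steps of beta oxidation and carnitine transport, were level-matched with log2 differences of -0.12, -0.10, 0.24 and -0.03. Oxct1, the enzyme that uses ketone bodies, was the member called higher in jejunum (5.38 ± 1.43 against 68.2 ± 49.6 CPM; -3.25 ± 0.36 SE, adjusted p = 8.89e-06). Cyp4a10, a fatty acid hydroxylase, overlapped because of jejunum library 2, with 74.2, 151, 646 and 302 CPM in the liver and 3.0, 183, 5.0 and 18.3 CPM in the jejunum. Thrsp, a lipogenic factor (463 ± 179 CPM), and Cyp4a14 (643 ± 739 CPM) were listed in the liver only.

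Sugar genes also held members called in either direction. Of 37 genes, 28 were in both tables, with 9 called higher in liver, 8 called higher in jejunum, 5 level-matched and 6 neither. Over all genes tested, 25% were called higher in liver and 21.6% higher in jejunum, and 36% were level-matched. The disaccharidases lay on the jejunal side. Treh, the trehalase, gave 3.8, 4.7, 5.5 and 2.2 CPM in the liver and 1178, 1035, 1155 and 1448 CPM in the jejunum (-7.94 ± 0.21 SE, adjusted p = 1.1e-10), and Mgam, the maltase-glucoamylase, gave 118 against 4825 CPM (-5.32 ± 0.18 SE, adjusted p = 5.19e-10). Lct, the lactase, was listed only in the jejunum (5394, 3255, 5089.7 and 3436 CPM). Slc2a5, the fructose transporter, was 9.53 ± 1.52 against 661 ± 326 CPM (-5.87 ± 0.28 SE, adjusted p = 8.98e-09). Slc2a2, the transporter that both cell types use on the side of the blood, differed less, with 257, 286, 303 and 305 CPM in the liver and 784, 870.0, 883 and 458 CPM in the jejunum (-1.33 ± 0.21 SE, adjusted p = 0.000128). The groups were separate, but the difference fell just under 2-fold with quantile normalization. Khk, the ketohexokinase of fructose breakdown, was level-matched (529 ± 89.3 against 603 ± 155 CPM; 95% interval -0.62 to 0.28).

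Glycogen and gluconeogenic genes lay mostly on the liver side. Pygl, the liver glycogen phosphorylase, gave 559, 728, 716 and 672 CPM in the liver and 1.6, 2.3, 1.8 and 2.7 CPM in the jejunum (7.76 ± 0.15 SE, adjusted p = 1.6e-11). Gbe1, the branching enzyme, was 169 ± 36.2 against 11.7 ± 7.56 CPM (3.88 ± 0.32 SE, adjusted p = 6.21e-07). Fbp1, a gluconeogenic phosphatase, was 1308 ± 546 against 154 ± 39.5 CPM (3.03 ± 0.28 SE, adjusted p = 1.62e-06), Pcx, pyruvate carboxylase, was 519 against 69.3 CPM (2.88 ± 0.12 SE, adjusted p = 4.15e-09) and Pck1, which controls entry into gluconeogenesis, was 1197 ± 588 against 170.5 ± 74.4 CPM (2.80 ± 0.38 SE, adjusted p = 4.04e-05). G6pc, which releases free glucose, was not called, with 476, 437, 692 and 372 CPM in the liver and 341, 305, 285 and 224 CPM in the jejunum (0.75 ± 0.21 SE, adjusted p = 0.00603). Its libraries did not overlap, and it passed the 2-fold limit with quantile normalization (1.14, adjusted p = 0.0002). Slc37a4, its transport partner, was level-matched (-0.17). The liver glycogen synthase Gys2 (138 ± 28.8 CPM) was listed in the liver only.

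Peptide digestion and amino acid transport lay on the jejunal side for nearly all genes in both tables. Of 31 genes, 13 were in both tables, and 12 of these were called higher in jejunum and none higher in liver, with a median log2 difference of -4.0. A further 12 were listed in the jejunum only and 6 in the liver only. Ace, the angiotensin-converting dipeptidase, gave 1.5, 1.2, 1.6 and 2.1 CPM in the liver and 4272, 1837, 4138 and 2883 CPM in the jejunum (-10.24 ± 0.25 SE, adjusted p = 6.68e-11). Anpep, aminopeptidase N, gave 124, 119.9, 133 and 126 CPM in the liver and 7241, 5325, 11746 and 6099.8 CPM in the jejunum (-5.84 ± 0.23 SE, adjusted p = 1.89e-09). Neither gene overlapped between the tissues. Mme, neprilysin, was 25.6 against 1859 CPM (-6.23 ± 0.39 SE, adjusted p = 6.99e-08). Among transporters, Slc43a2, a carrier of large neutral amino acids, was 16.1 against 1255 CPM (-6.18 ± 0.30 SE, adjusted p = 1e-08) and Slc7a7, a light chain that exports basic amino acids, was 5.15 against 329 CPM (-5.76 ± 0.17 SE, adjusted p = 2.44e-10). The meprin subunit Mep1b (2263 ± 339 CPM) and the neutral amino acid transporter Slc6a19 (1379 ± 373 CPM) were listed in the jejunum only. Liver cells had carriers of their own. The glutamine transporter Slc38a3 (1620.5 ± 199.99 CPM), Slc38a4 (1010.0 ± 76.5 CPM) and the cationic amino acid transporter Slc7a2 (437 ± 146 CPM) were listed in the liver only.

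Amino acid breakdown showed the opposite distribution. Of 47 genes of the urea cycle and amino acid catabolism, 24 were in both tables, with 16 called higher in liver, 2 called higher in jejunum and 4 level-matched, and 22 more were listed in the liver only. Cps1, which commits ammonia to urea, gave 2691, 4124, 4256 and 3751 CPM in the liver and 55.7, 198, 142 and 82.9 CPM in the jejunum (5.08 ± 0.34 SE, adjusted p = 1.38e-07). Otc, the next enzyme, was 677 ± 152 against 119 ± 12.1 CPM (2.48 ± 0.17 SE, adjusted p = 1.64e-07). The groups stayed apart for both genes. Among the last enzymes of the cycle, Ass1 (777 ± 205 CPM) and Arg1 (1145 ± 149 CPM) were not listed in the jejunum and Asl was 409 ± 129 against 15.8 ± 3.72 CPM (4.59 ± 0.23 SE, adjusted p = 1.08e-08). Of 9 tested genes of the urea cycle and citrulline synthesis, 6 were called higher in liver, among them the aspartate carrier Slc25a13 (3.01), and 1 was called higher in jejunum. The other 2 were level-matched, namely Nags (0.56), which makes the activator of Cps1, and the ornithine carrier Slc25a15 (0.30).

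Other amino acid enzymes were further apart. Tat, tyrosine aminotransferase, was 838 ± 259 against 0.45 ± 0.17 CPM (9.14 ± 0.19 SE, adjusted p = 2.64e-11), Gpt2, a mitochondrial alanine aminotransferase, was 574 ± 64.3 against 2.38 ± 0.25 CPM (7.41 ± 0.12 SE, adjusted p = 7.99e-12) and Glul, glutamine synthetase, was 1430.0 ± 243 against 11.0 ± 3.86 CPM (6.94 ± 0.21 SE, adjusted p = 2.81e-10). Mat1a, which makes S-adenosylmethionine (3559 ± 404 CPM), Hpd of tyrosine breakdown (1689.5 ± 332 CPM) and Cdo1 of cysteine breakdown (1498 ± 146 CPM) were listed in the liver only. A member higher in jejunum was Aldh18a1, which turns glutamate into the precursor of proline and ornithine, and gave 2.4, 6.8, 2.3 and 2.9 CPM in the liver and 215, 192, 203 and 227 CPM in the jejunum (-5.61 ± 0.24 SE, adjusted p = 4.15e-09). Its libraries were fully separate.

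Bile acid genes were split by step. Of 26 genes, 11 were in both tables, with 9 called higher in liver, 2 called higher in jejunum and none level-matched. A further 12 were listed in the liver only. These include Cyp7a1, the rate-limiting enzyme of synthesis (249, 564, 187 and 203 CPM), the canalicular bile salt pump Abcb11 (823 ± 187 CPM) and the hepatic uptake carriers Slco1b2 (1398 ± 214 CPM) and Slc10a1 (771 ± 107 CPM). Baat, which conjugates bile acids to taurine, was 363 ± 32.0 against 1.40 ± 0.37 CPM (7.26 ± 0.14 SE, adjusted p = 1.6e-11). Hsd3b7, an early enzyme of synthesis, was 629.5 ± 70.1 against 24.9 ± 2.63 CPM (4.60 ± 0.13 SE, adjusted p = 1.87e-10). The basolateral exporter of enterocytes stood on the other side, since Slc51a was listed only in the jejunum (223, 246, 240.2 and 264 CPM) and its partner Slc51b was 1.55 ± 0.44 against 98.0 ± 22.7 CPM (-5.26 ± 0.18 SE, adjusted p = 7.08e-10). Atp8b1, a flippase that protects the apical membrane, was also called higher in jejunum (49.2 against 729 CPM; -3.83 ± 0.22 SE, adjusted p = 3.72e-08). Slc10a2, the apical bile acid transporter known from the ileum, was at 0.3, 1.1, 1.0 and 0.4 CPM in the jejunum and 24.3, 17.3, 7.3 and 25.3 CPM in the liver (3.42 ± 0.34 SE, adjusted p = 3.01e-06). Nr1h4, the nuclear receptor for bile acids, was 158 ± 19.9 against 20.5 ± 6.66 CPM (2.92 ± 0.20 SE, adjusted p = 1.64e-07).

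Cytochrome P450 genes of families 1 to 4 divided almost evenly where both tissues had them. Of 75 genes, 23 were in both tables, with 8 called higher in liver, 9 called higher in jejunum, 2 level-matched and 4 neither. A further 24 were listed in the liver only and 6 in the jejunum only. Reads of the close relatives within the Cyp2c, Cyp3a and Cyp4a groups may be shared, so the values of single members are uncertain. Cyp2c29 gave 1375, 955, 1015 and 1488 CPM in the liver and 3.3, 112, 16 and 9.9 CPM in the jejunum (6.10 ± 0.76 SE, adjusted p = 2.11e-05). Cyp2c55 showed the reverse, with 4.4, 4.5, 3.6 and 3.6 CPM in the liver and 22.6, 373, 84.3 and 121 CPM in the jejunum (-4.29 ± 0.63 SE, adjusted p = 7.48e-05). Both differences stood apart from the spread, although jejunum library 2 was high for both genes. The other leading liver members were Cyp2c67 (5.62), Cyp4f15 (5.55) and Cyp2c23 (5.27). The fatty acid hydroxylases Cyp4f16 (-6.95) and Cyp4f14 (-3.32), the drug-metabolizing Cyp3a13 (-3.38) and Cyp4b1 (-3.27) led toward the jejunum. Cyp3a13 gave 264, 179.9, 248 and 252 CPM in the liver and 2209, 2906, 1998 and 2731 CPM in the jejunum, with no overlap (-3.38 ± 0.18 SE, adjusted p = 2.27e-08).

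Some P450 genes did not separate the tissues. Cyp2d26 was level-matched, with 612, 549.7, 712 and 725 CPM in the liver and 572, 646, 662 and 748 CPM in the jejunum (95% interval -0.36 to 0.32). Cyp3a11, a main drug-oxidizing enzyme, gave 418, 489.9, 941 and 1058 CPM in the liver and 994, 2099.8, 766 and 1700.0 CPM in the jejunum, and its groups overlapped (-0.93 ± 0.38 SE, adjusted p = 0.0414). Without liver library 3 or 4, or jejunum library 1 or 3, Cyp3a11 passed the 2-fold limit (-1.18 to -1.06). Cyp2e1, which oxidizes ethanol (5771 ± 1374 CPM), Cyp2f2 (1124 ± 203 CPM) and Cyp2d9 (773 ± 74.2 CPM) were the highest of those listed in the liver only. Cyp2b10 (513 ± 160.3 CPM), Cyp2c65 (468 ± 205 CPM) and Cyp2c66 (181 ± 175 CPM) were the highest of those listed in the jejunum only.

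Conjugating enzymes also had members called in either direction or listed in 1 table only. Of 7 tested glucuronosyltransferases, 4 were called higher in liver and none higher in jejunum, beside 25% and 21.6% of all genes tested. Ugt2b36 was 820.5 ± 145 against 8.20 ± 3.60 CPM (6.55 ± 0.26 SE, adjusted p = 1.89e-09) and Ugt2b5 was 619.8 ± 94.7 against 22.5 ± 20.1 CPM (5.19 ± 0.55 SE, adjusted p = 5.59e-06), whereas Ugt2b34 was 703 ± 112 against 1091 ± 144 CPM and was not called (-0.64 ± 0.17 SE, adjusted p = 0.00511). Ugt1a7c (168 ± 133 CPM) was listed in the jejunum only. The Ugt1a genes share exons, so the split of their reads is uncertain. Of 20 tested glutathione S-transferases, 9 were called higher in liver and 5 higher in jejunum. Mgst1, a microsomal member, gave 3659, 4042, 3916 and 3622 CPM in the liver and 35.6, 78.8, 81.8 and 76.6 CPM in the jejunum (5.85 ± 0.24 SE, adjusted p = 3.15e-09), and Gstm1 gave 926 against 60 CPM (4.55 ± 0.65 SE, adjusted p = 6.12e-05). Mgst3 (-3.80), Gsta1 (-3.89) and Gsto1 (-2.56) lay on the jejunal side, and Gsta3 (1463 ± 109 CPM) and Mgst2 (194 ± 60.1 CPM) were each listed in 1 table. Gstp1, Gstp2 and Gstp3 are near copies, so their differences of 3.43, -2.96 and 2.62 are uncertain. Sulfotransferases had 2 tested members. Sult1b1 was called higher in jejunum (35.7 ± 2.12 against 665 ± 96.2 CPM; -4.17 ± 0.13 SE, adjusted p = 3.82e-10), and Sult2a8 (817 ± 105 CPM) was listed in the liver only.

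Carboxylesterases, which hydrolyse esters of drugs and lipids, had called members on both sides. The tested Ces1 members Ces1d (5.64), Ces1g (5.18), Ces1e (3.59) and Ces1f (1.94) were called higher in liver. The Ces2 members Ces2c (-4.59), Ces2e (-2.94) and Ces2a (-2.04) were called higher in jejunum, while Ces2g (0.78) was not called as deposited and was called higher in liver with median-ratio scaling (1.01, adjusted p = 0.0256), with quantile normalization (1.06, adjusted p = 0.0109) and without jejunum library 2 (1.05, adjusted p = 0.0133). Ces2e gave 186, 373, 305 and 257 CPM in the liver and 1854, 2159, 1736 and 2742 CPM in the jejunum (-2.94 ± 0.23 SE, adjusted p = 4.48e-07), and Ces1c gave 2137, 1856, 2098 and 1944 CPM in the liver with no listing in the jejunum. Reads among Ces1 copies may be shared. The Ces2a groups overlapped, with 94.8, 73.4, 91.9 and 129 CPM in the liver and 123.4, 1659, 179 and 659.8 CPM in the jejunum, and its call was lost with quantile normalization (-1.65, adjusted p = 0.0535).

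The smaller oxidizing families had few tested members each, and their counts stand beside 25% of all genes tested called higher in liver and 21.6% higher in jejunum. Aldehyde dehydrogenases had 7 of 13 tested members called higher in liver and 2 higher in jejunum, led by Aldh7a1 of lysine breakdown (568 ± 81.2 against 4.30 ± 1.20 CPM; 6.76 ± 0.17 SE, adjusted p = 9.26e-11) and Aldh6a1 of valine breakdown (5.08). Alcohol dehydrogenases had 3 of 4 called higher in liver, namely Adh4 (3.70), Adh5 (3.59) and Adh1 (1929 ± 313 against 401 ± 209 CPM; 2.41 ± 0.34 SE, adjusted p = 5.22e-05), and Adh6a was listed in the jejunum only (869.7 ± 214 CPM). Aldo-keto reductases had 3 of 9 called higher in liver, near the share of all genes, led by Akr1c14 (4.64). Among flavin monooxygenases, Fmo1 (2.17) and Fmo2 (1.53) were called higher in liver, Fmo4 (-3.18) higher in jejunum, and Fmo5 was level-matched (734 ± 175 against 562 ± 49.6 CPM; 95% interval -0.03 to 0.75). Of the epoxide hydrolases, Ephx1 was called higher in liver (285 ± 61.7 against 48.4 ± 45.9 CPM; 3.06 ± 0.58 SE, adjusted p = 0.000557) and Ephx2 was level-matched (991 ± 218 against 1060.0 ± 175 CPM; 95% interval -0.54 to 0.33). The acetyltransferase Nat2 was just past 2-fold toward the jejunum (-1.04), and under it with median-ratio scaling (-0.81), with quantile normalization (-0.92) and without jejunum library 4 (-0.88), and the glycine acyltransferase Glyat (390.1 ± 66.2 CPM) was listed in the liver only.

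Transporters of foreign compounds had members called in either direction. Of 21 genes, 16 were in both tables, with 3 called higher in liver, 6 called higher in jejunum, 3 level-matched and 4 neither. The shares over all genes tested were 25% higher in liver, 21.6% higher in jejunum and 36% level-matched. Abcb1a, the P-glycoprotein efflux pump, gave 2.0, 2.1, 3.1 and 2.7 CPM in the liver and 189, 601, 314 and 164 CPM in the jejunum (-6.33 ± 0.34 SE, adjusted p = 2.18e-08). The groups were separate. Slc22a5, the carnitine transporter, was 15.6 ± 3.19 against 101 ± 10.3 CPM (-2.63 ± 0.15 SE, adjusted p = 3.31e-08). The apical conjugate pump Abcc2 (360.2 ± 94.6 against 673 ± 339 CPM; -0.78 ± 0.36 SE, adjusted p = 0.0666) was not called, but was called without jejunum library 4 (-1.13, adjusted p = 0.0026). Slc23a1, the vitamin C transporter, Slc47a1 and Slc22a18 were level-matched, with log2 differences of -0.00, 0.06 and 0.06.

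Iron, haem and vitamin genes held members called in either direction. Of 30 genes, 19 were in both tables, with 9 called higher in liver, 7 called higher in jejunum and 1 level-matched. Heph, the ferroxidase of enterocytes, gave 1.2, 1.9, 2.6 and 2.1 CPM in the liver and 697, 574, 718 and 433 CPM in the jejunum (-7.68 ± 0.20 SE, adjusted p = 8.98e-11). Slc40a1, the iron exporter ferroportin, gave 144, 183, 233 and 211 CPM in the liver and 1.6, 21.1, 2.6 and 3.7 CPM in the jejunum (5.10 ± 0.53 SE, adjusted p = 5.11e-06). Partners in iron export thus lay on opposite sides. Trf, the plasma iron carrier transferrin (1872 ± 1010.3 CPM), Cp, the plasma ferroxidase ceruloplasmin (1614 ± 173 CPM), and the transthyretin gene Ttr (5766 ± 529 CPM) were listed in the liver only. Within iron handling the storage subunit Fth1 was called higher in jejunum (-1.12 ± 0.31 SE, adjusted p = 0.00626) and the transferrin receptor Tfrc higher in liver (1.19 ± 0.31 SE, adjusted p = 0.00427). The Fth1 difference was under 2-fold with median-ratio scaling (-0.88), with quantile normalization (-0.78), without jejunum library 2 (-0.95) and without jejunum library 4 (-0.93), and that of Tfrc without jejunum library 1 (0.93). Among vitamin A genes, Rbp4, the plasma retinol carrier, was 2410.2 ± 468 against 2.52 ± 0.86 CPM (9.43 ± 0.20 SE, adjusted p = 2.63e-11), and Rbp2, the retinol carrier inside enterocytes, was listed only in the jejunum (4619 ± 1680.2 CPM). Lrat, which esterifies retinol, was level-matched (33.4 ± 4.44 against 30.5 ± 8.13 CPM; 95% interval -0.26 to 0.56). Lrat is also among the fibroblast and stellate cell markers used here, and which cells gave its level was not tested. The folate and haem transporter Slc46a1 (45.8 ± 4.31 against 372 ± 82.0 CPM; -2.97 ± 0.17 SE, adjusted p = 3.75e-08) was called higher in jejunum. Cubn (630.2 ± 289 CPM) and Amn (139 ± 55.3 CPM), the cobalamin receptor pair, were listed in the jejunum only, and Tcn2, the plasma cobalamin carrier, was called higher in jejunum (-2.12 ± 0.14 SE, adjusted p = 1.09e-07).

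Transcription factors of both epithelia included shared and separate members. Of 46 genes, 35 were in both tables, with 11 called higher in liver, 14 called higher in jejunum, 6 level-matched and 4 neither. Hnf4a, a nuclear receptor needed by both epithelia, gave 639, 552, 554 and 565 CPM in the liver and 912, 844, 783 and 538 CPM in the jejunum (95% interval -0.78 to 0.01). It was level-matched with overlapping libraries. The carbohydrate sensor Mlxipl, the xenobiotic receptor Nr1i3 and Pparg were also level-matched, with log2 differences of 0.23, 0.29 and -0.10. With quantile normalization these genes were neither level-matched nor called (0.65, 0.70 and -0.40).

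Liver-side factors were led by Prox1, with 187, 203, 110.5 and 154 CPM in the liver and 1.2, 1.6, 1.1 and 0.7 CPM in the jejunum (6.24 ± 0.20 SE, adjusted p = 4.39e-10). Atf5 was 289.8 ± 27.1 against 4.05 ± 1.16 CPM (5.88 ± 0.18 SE, adjusted p = 2.81e-10) and Cebpa, a driver of hepatocyte genes, was 399 ± 36.2 against 32.6 ± 6.93 CPM (3.59 ± 0.16 SE, adjusted p = 4.23e-09). The forkhead factors Foxa2 (3.87), Foxa3 (2.94) and Foxa1 (1.44), Nr5a2 (3.36), Ahr (2.35), the fatty acid receptor Ppara (1.81), Cebpb (1.57) and Rxra (1.57) were also called higher in liver. Onecut1 (3.20 ± 2.70 CPM) and Esr1 (30.1 ± 8.99 CPM) were listed in the liver only.

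Jejunum-side factors were led by Klf4, a factor of differentiated epithelium, with 1.2, 1.3, 0.7 and 1.7 CPM in the liver and 339.5, 269, 321 and 228 CPM in the jejunum (-7.03 ± 0.17 SE, adjusted p = 7.54e-11). Elf3 was 1.18 ± 0.28 against 178 ± 38.5 CPM (-6.34 ± 0.17 SE, adjusted p = 1.22e-10), and Ppard, another fatty acid receptor, was 8.38 ± 2.13 against 152 ± 32.5 CPM (-4.04 ± 0.20 SE, adjusted p = 1.13e-08). Other members called higher in jejunum were Gata6 (-3.94), Prdm1 (-3.50), Tbx3 (-3.05), Esrra (-2.97), Maf (-2.87), Gata4 (-2.83), Nfe2l2 (-2.06), Ehf (-1.99), Nr1i2 (-1.39) and Creb3l1 (-1.32). As deposited, the xenobiotic receptor Nr1i2 was thus called higher in jejunum while its relative Nr1i3 was level-matched. Hnf4g (635 ± 70.5 CPM), Vdr (356 ± 14.9 CPM), Cdx2 (141 ± 17.1 CPM), Gata5 (101 ± 20.5 CPM), Isx (80.2 ± 8.67 CPM), Klf5 (73.2 ± 28.6 CPM), Cdx1 (41.1 ± 13.7 CPM), Atoh1 (6.25 ± 1.82 CPM) and Pdx1 (2.42 ± 3.33 CPM) were listed in the jejunum only. Onecut2, Nr1h3, Thrb and Srebf2 were not called, with log2 differences of 0.62, 0.78, 0.84 and 0.79. Nr1h3, Thrb and Srebf2 passed the 2-fold limit toward the liver with median-ratio scaling (1.02 to 1.07), Onecut2, Nr1h3 and Srebf2 with quantile normalization (1.0 to 1.14), and Srebf2 also without jejunum library 2 (1.04).

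**Figure D4:**
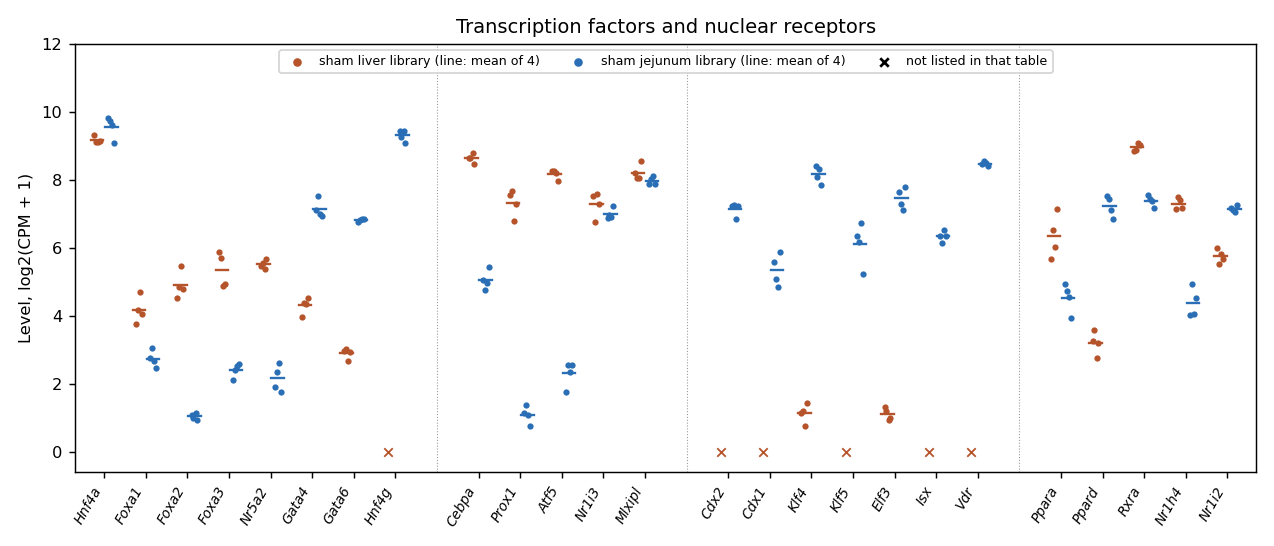
Level of transcription factors in each sham library as log2(CPM + 1) on the vertical axis, liver and jejunum side by side, with each point a library, lines at the mean of 4 and a cross where a gene was not listed. Hnf4a, Mlxipl and Nr1i3 overlap between the tissues, while Prox1 and Cebpa lie higher in the liver and Klf4 and Elf3 higher in the jejunum.

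A stricter view of the shared programme compared both tissues with fat and muscle of the same sham group. There were 1226 genes with at least 50 CPM in all 8 libraries. Of these, 65 were not listed or had at most 5 CPM in every sham library, in both subcutaneous fat and muscle. In neither of those tissues were 49 of the 65 listed, so their levels there are not known. Of the 65, 40 belonged to a list described above. By call, 9 were higher in liver, 27 higher in jejunum and 16 level-matched, beside 25%, 21.6% and 36% of all genes tested. The other 13 were neither. Ranked by the mean level in the tissue where each was lower, the first included Apob, Apoa1, Fabp1, Pigr, Apoc3, Apoa4, Cyp3a11, Ugt2b34, Cyp2d26, Hnf4a, Sec14l2, Abcc2, Pklr and Cyp3a25. Pigr, the receptor that carries immunoglobulin A across epithelium, gave 1287, 1102, 1291 and 1751 CPM in the liver and 6930.3, 4989, 4248 and 5366 CPM in the jejunum (-1.98 ± 0.22 SE, adjusted p = 6.91e-06). Sec14l2, a lipid-binding protein, gave 677, 649, 648 and 789.9 CPM in the liver and 445, 478, 453 and 529.8 CPM in the jejunum (0.53 ± 0.14 SE, adjusted p = 0.00415). Pklr, the pyruvate kinase known from liver, was 356 ± 98.0 against 703 ± 249 CPM (-0.96 ± 0.25 SE, adjusted p = 0.00414) and Cyp3a25 was 335 ± 129.5 against 792 ± 122 CPM (-1.31 ± 0.26 SE, adjusted p = 0.000825). Pklr passed the 2-fold limit without liver library 2 or without jejunum library 1 or 4 (-1.13 to -1.03), and Cyp3a25 fell to -0.99 with quantile normalization.

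The same promoter letters were counted in all RefSeq windows of 300 bases, 250 before and 50 after the start site, on both strands. The C/EBP letters were in 10.8% of all windows and in 8.09% of windows of the genes tested. They were in 23.4% of windows of the 251 coding genes listed only in the liver at a mean of at least 100 CPM, and in 9.93% of windows of the 157 such genes listed only in the jejunum. Windows of the 65 genes shared by both tissues and low or not listed in fat and muscle held them in 22.6%. For genes called higher in liver and in jejunum the shares were 8.72% and 7.54%. The CDX2 letters were in 10.9% of all windows, in 19.9% of windows of the jejunum-only genes and in 11.7% of windows of the liver-only genes. They were in 6.53% of windows of the genes tested, 6.56% of those called higher in liver and 6.55% of those called higher in jejunum. Counted only where they did not overlap TATAAA, the shares of all, jejunum-only and liver-only windows became 7.61%, 14.2% and 9.46%. The letters CAAAGTCCA, a form of the HNF4 site, were in 0.475% of all windows, in 6.45% of windows of the 65 shared genes, in 4.96% of windows of the jejunum-only genes and in 1.35% of windows of the liver-only genes. The HNF4 letters were in only 4 of 62 shared, 7 of 141 jejunum-only and 3 of 222 liver-only windows. In all, 6 motifs were searched. Letters of a GATA site were in 3.04% of all, 6.76% of liver-only, 3.55% of jejunum-only and 8.06% of shared windows. Gata4 and Gata6 were nevertheless called higher in jejunum. The TATA letters were in 13.6%, 18.9%, 21.3% and 21% of these sets. HNF1 letters were in 19 of 32851 windows. These shares are a description, without a test.

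For several steps, transcripts of related enzymes differed in opposite directions between the tissues. The pairs below were set side by side after their values were seen. Acsl1 and Acsl5, which activate long-chain fatty acids, were 880.3 against 96.8 CPM and 539.5 against 3993 CPM, with log2 differences of 3.16 and -2.88. For the first step of glycerolipid synthesis, Gpam differed by 5.86 and Gpat3 by -4.88. For the phosphatidate phosphatases, Lpin1 differed by 4.55 and Lpin3 by -4.0. Among other members of these steps, Acsl3 (-0.03) and Lpin2 (-0.21) were level-matched, whereas Acsl4 (5.31) and Gpat4 (3.07) were called higher in liver. Which enzyme carries a step was not tested. Pkm, the other pyruvate kinase, gave 9.8, 13.6, 14.7 and 14.2 CPM in the liver and 597, 625, 513 and 692 CPM in the jejunum (-5.44 ± 0.15 SE, adjusted p = 1.72e-10), whereas Pklr was present in both. The arginase Arg1 was listed in the liver only and Arg2 (429 ± 68.0 CPM) in the jejunum only.

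**Figure D5:**
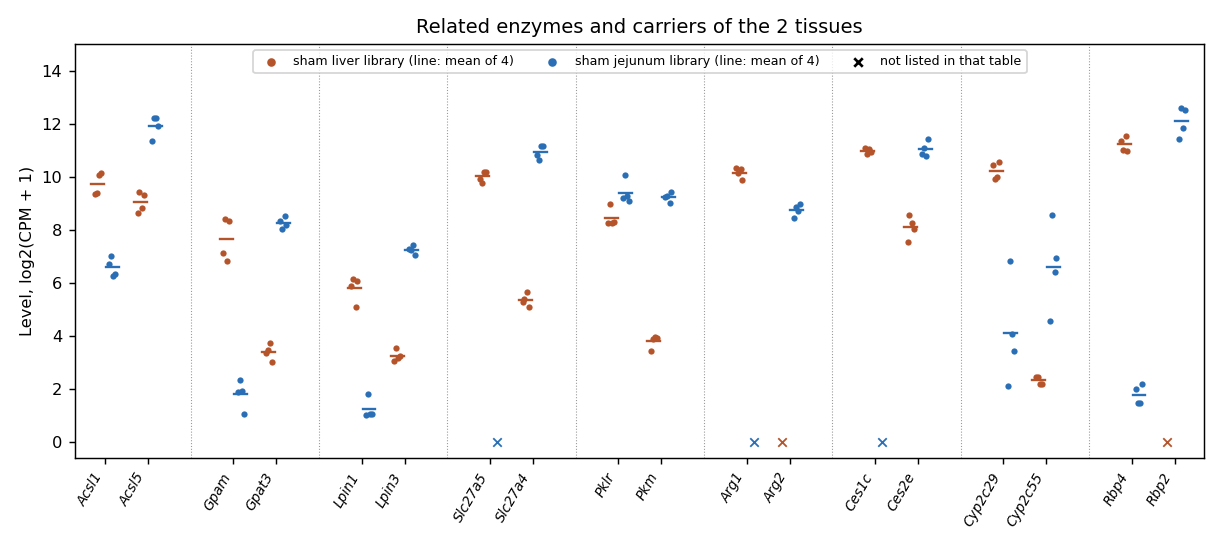
Level of related enzymes and carriers in each sham library as log2(CPM + 1) on the vertical axis, placed in pairs, with each point a library, lines at the mean of 4 and a cross where a gene was not listed in that tissue's table. In each pair the member named first lies higher in, or is listed only in, the liver, and the member named next lies higher in, or is listed only in, the jejunum, except that Pklr is high in both tissues.

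The tissue contrast was repeated in the RYGB group, whose mice had the same diet and other libraries. Of 9609 genes tested, 2862 (29.8%) were called higher in RYGB liver and 1815 (18.9%) higher in RYGB jejunum. Of the 4479 genes called in the sham group, 3829 (85.5%) were called in the same direction in the RYGB group and 15 in the opposite direction. Conversely, 81.9% of the 4677 RYGB calls were called in the same direction in the sham group. Of 3453 level-matched genes tested in both, 2359 were level-matched again. The tissue difference itself changed with surgery, by the interaction term with an adjusted p under 0.05, for 991 of 9618 genes (10.3%), among them 74 of 323 list members. The lists were chosen with earlier results of these data known, so these counts cannot show that list members changed more often.

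Some of the genes described above were among those whose tissue difference changed. They were chosen after their values were seen. For Pck1, the log2 difference was 2.80 in the sham group and 8.27 in the RYGB group (interaction adjusted p = 0.000107). The RYGB libraries of Pck1 gave 1768, 2896, 1519 and 2966 CPM in the liver and 10.0, 8.8 and 2.3 CPM in the jejunum. This gluconeogenic enzyme was thus further apart between the tissues in the RYGB group. Cd36, a fatty acid uptake protein, turned from -1.16 in the sham group to 3.63 in the RYGB group (interaction adjusted p = 0.000211). Its sham libraries gave 75.4, 157, 312 and 189 CPM in the liver and 364, 427, 382 and 298 CPM in the jejunum, and its RYGB libraries 201, 336, 489 and 295 CPM and 14, 55.3 and 18.4 CPM. The sham groups of Cd36 overlapped and their difference was not called with either other scaling (-0.92 and -0.75) or without liver library 1 (-0.79), and the RYGB groups stood apart with the liver higher. Apoa4 remained higher in jejunum, at -5.70 in the sham group and -2.58 in the RYGB group (interaction adjusted p = 0.000872). Fasn stayed higher in liver, at 6.67 and 3.01 (interaction adjusted p = 0.00327).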

How the data were processed

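Poly(A) RNA of liver and of scraped jejunal villi was sequenced as TruSeq Stranded mRNA libraries, per the labels. The submitters' processing notes name HTSeq and GRCm38, and the aligner is not given in the sources used here. The deposited values are CPM, rounded by the authors to 0.1, in 1 table per tissue. No listed gene had fewer than 4 liver or 3 jejunum libraries at 1 CPM or more, so the authors had filtered each table separately. Per the file headers, columns are named by sample, and they could be matched to the labels. Read totals are not given, so the depth is unknown. Incomplete lines of the liver table (12) were left out and repeated lines (359 in the jejunum, 1 in the liver) counted once. The liver table holds 11843 genes, of which 11785 are protein-coding, and in the jejunum 10479 of 11021 listed genes are, so a gene listed in 1 table only is not compared. Symbols were taken by Ensembl identifier (13165 of 13246 matched).

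Liver and jejunum of the sham group were compared with limma 3.58.1 in R 4.3.3, with an intensity trend, on log2(CPM + 1) of genes averaging 1 CPM or more, and p-values were adjusted over all genes by Benjamini-Hochberg. Because each library is scaled to its own total and not to its table, values were compared across tables, with median-ratio scaling and quantile normalization as alternatives. Other alternatives were a pseudocount of 0.1, a minimum of 10 CPM or none, 1.5-fold and 4-fold limits, no trend, a replicate block and leaving out each library. The same model was fitted to the RYGB group, and an interaction of tissue and surgery to all 15 libraries. The scripts were tested on simulated data. Python 3.11.15 with pandas 2.3.3, numpy 2.4.6 and matplotlib 3.10.9 was used for the rest.

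The members and gene lists were chosen with earlier results of these data known. Named in each list were up to 5 called members with the largest difference in each direction, up to 4 level-matched members and up to 3 members listed in 1 table only, by level, and all measured transcription factors. Over all genes, the 5 called genes with the largest difference in each direction whose libraries did not overlap were named. Up to 15 genes shared by both tissues and low or not listed in fat and muscle were also named. Any further gene was chosen after its values were seen. Some genes that this rule names are not reported here.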

Additional observations from a re-analysis of the deposited data

Results flagged for a closer look

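The difference between liver and jejunum changed with surgery for 44 of 200 named genes tested, by the limma interaction term with an adjusted p under 0.05. The share over all genes tested was 10.3%. Named genes were chosen by their sham values, which enter this term, or after values were seen. The shares therefore cannot show that named genes changed more often. Each value is the log2 difference of liver minus jejunum in the RYGB group less that in the sham group, with the sham and RYGB differences in parentheses. Among lipoprotein and lipid genes, the difference shifted toward the liver for Abcg8 by 1.15 (-3.40 to -2.25), Apoa4 by 3.12 (-5.70 to -2.58), Cd36 by 4.79 (-1.16 to 3.63) and Gpat3 by 1.10 (-4.88 to -3.78). The same direction was seen for Lrat by 2.81 (0.15 to 2.96) and Sec14l2 by 0.95 (0.53 to 1.48). It shifted toward the jejunum for Agpat2 by -0.76 (-0.26 to -1.02), Fasn by -3.66 (6.67 to 3.01) and Oxct1 by -2.42 (-3.25 to -5.68). Among sugar, peptide and amino acid genes, the difference shifted toward the liver for Ace by 2.14 (-10.24 to -8.09), Pck1 by 5.47 (2.80 to 8.27), Slc25a13 by 1.15 (3.01 to 4.16) and Slc25a15 by 1.05 (0.30 to 1.35). The same direction was seen for Slc43a2 by 1.44 (-6.18 to -4.74), Slc46a1 by 1.22 (-2.97 to -1.75) and Treh by 1.95 (-7.94 to -5.99). It shifted toward the jejunum for Mgam by -1.04 (-5.32 to -6.36), Pklr by -1.57 (-0.96 to -2.53) and Tat by -2.59 (9.14 to 6.54). Among detoxification genes, the difference shifted toward the liver for Akr1c14 by 2.33 (4.64 to 6.97), Ces1g by 2.02 (5.18 to 7.20), Cyp2c23 by 0.91 (5.27 to 6.18) and Cyp2c67 by 0.92 (5.62 to 6.54). The same direction was seen for Cyp2d26 by 0.86 (-0.02 to 0.84), Cyp3a11 by 3.39 (-0.93 to 2.46), Ephx1 by 3.55 (3.06 to 6.61) and Fmo1 by 1.32 (2.17 to 3.50). A shift toward the liver was also found for Fmo2 by 1.70 (1.53 to 3.24), Fmo4 by 0.88 (-3.18 to -2.30), Fmo5 by 1.12 (0.36 to 1.48) and Slc22a5 by 1.22 (-2.63 to -1.41). Further shifts toward the liver were those of Slc47a1 by 1.61 (0.06 to 1.67), Ugt2b34 by 0.81 (-0.64 to 0.17), Ugt2b36 by 1.41 (6.55 to 7.96) and Ugt2b5 by 2.33 (5.19 to 7.52). Among transcription factors and other genes, the difference shifted toward the liver for Gata6 by 1.01 (-3.94 to -2.92), H2-Q2 by 0.97 (-9.52 to -8.55), Insr by 0.82 (0.34 to 1.16) and Nr1d2 by 1.14 (0.22 to 1.36). The same direction was seen for Nr1i3 by 0.89 (0.29 to 1.18) and Thrb by 1.3 (0.84 to 2.14). It shifted toward the jejunum for Foxa1 by -1.64 (1.44 to -0.20), Krt18 by -1.23 (2.14 to 0.91) and Srebf2 by -1.71 (0.79 to -0.92). In the sham group, Tat in the jejunum (0.7, 0.3, 0.4 and 0.4 CPM) and H2-Q2 in the liver (0.6, 1.1, 0.5 and 0.5 CPM) had fewer than 3 libraries at 1 CPM, so both were listed there through their RYGB libraries and their shifts are not independent of the filter of the tables.

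In 29 of 467 groups of 4 sham libraries of the named genes, the most distant library lay beyond the critical gap of the Dixon test at 95% on the log2 scale, beside about 23.40 by chance alone. Jejunum library 1 stood apart for Cyp2b10 (274.1 CPM, the others 568.7 to 611.9 CPM), Mgst1 (35.6 CPM, the others 76.6 to 81.8 CPM), Mogat2 (453.5 CPM, the others 536.2 to 544.5 CPM) and Per1 (22.5 CPM, the others 3.0 to 4.1 CPM). Jejunum library 2 stood apart for Ces2c (1017.0 CPM, the others 232.7 to 270.0 CPM), Ehhadh (363.6 CPM, the others 215.4 to 234.6 CPM), Lpin1 (2.5 CPM, the others 1.0 to 1.1 CPM), Oxct1 (142.3 CPM, the others 37.6 to 47.2 CPM), Scarb1 (41.5 CPM, the others 4.6 to 6.4 CPM) and Ugt1a7c (367.9 CPM, the others 98.9 to 105.6 CPM). Jejunum library 3 stood apart for Cdx2 (115.2 CPM, the others 147.6 to 151.2 CPM). Jejunum library 4 stood apart for Cldn3 (248.2 CPM, the others 175.6 to 182.9 CPM). Liver library 1 stood apart for Cebpb (65.5 CPM, the others 25.7 to 28.6 CPM), Hnf4a (639.3 CPM, the others 552.2 to 565.3 CPM), Per1 (19.0 CPM, the others 4.1 to 4.9 CPM), Per2 (30.9 CPM, the others 23.1 to 23.9 CPM), Slc43a2 (8.5 CPM, the others 18.3 to 19.0 CPM) and Slc51b (2.2 CPM, the others 1.3 to 1.4 CPM). Liver library 2 stood apart for Cyp3a13 (179.9 CPM, the others 248.2 to 264.4 CPM) and Pklr (503.2 CPM, the others 303.3 to 315.8 CPM). Liver library 3 stood apart for Apoa4 (1389.6 CPM, the others 603.1 to 660.6 CPM), Gsta1 (2.5 CPM, the others 0.2 to 0.4 CPM), Gsto1 (109.9 CPM, the others 70.9 to 74.3 CPM), Hpd (2185.1 CPM, the others 1497.7 to 1574.0 CPM), Mat1a (4160.8 CPM, the others 3291.2 to 3392.7 CPM), Mgst3 (21.3 CPM, the others 8.0 to 8.8 CPM) and Nnt (195.3 CPM, the others 43.9 to 47.6 CPM). Liver library 4 stood apart for Nat2 (24.6 CPM, the others 24.0 to 24.1 CPM) and Serpinc1 (1837.9 CPM, the others 2050.8 to 2087.4 CPM).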

How the results depend on the processing

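At a minimum of 4-fold in place of 2-fold, 1014 genes were called higher in liver and 941 higher in jejunum. All other alternatives kept the counts of genes called or level-matched within 1.5 times. Leaving out 1 library at a time gave 2341 to 2482 genes higher in liver and 2020 to 2138 higher in jejunum, and over the functional lists 124 to 135 and 93 to 98. No gene of the 4479 called genes was called in the opposite direction under any alternative, and 4119 were called again with median-ratio scaling, 3779 with quantile normalization and 3534 at a mean of at least 10 CPM, where fewer genes were tested. The share of calls higher in liver was 53.6%, became 62.7% with median-ratio scaling and lay between 47.5% and 55.1% under the other alternatives. Of 200 named genes tested, 4 lost their call and 4 gained one with median-ratio scaling, against 9 and 6 with quantile normalization. Of 32 named level-matched genes, 26 and 22 stayed level-matched under these scalings and none was called. Sar1a, Nags, Abca1, Ehhadh and Sec14l2 left the interval under both. Fmo5 left it with median-ratio scaling only, and Agpat3, Insr, Mlxipl, Nr1i3 and Pparg with quantile normalization only. Without jejunum library 3, Cd74 and H2-Aa turned from differences of -0.04 and -0.07 to 1.47 and 1.44, and the lowest value without any other library was -0.83 for both.

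The equal replicate numbers of the liver and jejunum samples were checked for pairing. Deviations of same-numbered libraries from their group means correlated at -0.116, 0.064, -0.147 and -0.591. With 4 libraries per tissue, deviations from a shared mean depend on each other, so these values cannot decide whether libraries share a mouse. Single genes, given below, were high in the same-numbered library of both tissues, namely Per1 in library 1 and Nnt in library 3. The library numbers of the same-numbered samples differ by 65 in all 4 pairs, and the labels do not say whether they came from the same mouse. With the replicate number as a block, 2404 genes were called higher in liver and 2077 higher in jejunum, and 4478 of the 4479 calls were made again. A level below about 1 CPM in a table rests on values rounded to 0.1 CPM, and read totals are not given, so counting error could not be set beside single values. No alternative was run on the promoter letters.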

Other observations

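The genes in these paragraphs were chosen after their values were seen. Junction and skeleton genes of the epithelia differed by member. Cdh1, the epithelial cadherin, was 47.8 ± 8.22 against 639 ± 95.05 CPM (liver against jejunum, SD, n = 4; log2 difference -3.72 ± 0.16 SE, adjusted p = 4.66e-09 by limma), whereas Cdh2, the neural cadherin, was listed only in the liver (49.9, 70.2, 62.3 and 80.8 CPM). Among claudins, which set the tightness of the junction, Cldn2 was called higher in liver (169.8 ± 20.5 against 2.27 ± 1.89 CPM; 5.89 ± 0.35 SE, adjusted p = 4.29e-08) and Cldn3 higher in jejunum (76.9 ± 6.69 against 196 ± 35.0 CPM; -1.33 ± 0.14 SE, adjusted p = 7.07e-06). Cldn1 (137 ± 13.0 CPM) was listed in the liver only, and Cldn7 (712 ± 194 CPM) and Cldn15 (814 ± 139 CPM) in the jejunum only. Krt8 and Krt18, keratins known to pair in simple epithelia, lay on opposite sides. Krt8 gave 145, 121, 156 and 86.4 CPM in the liver and 812, 833, 699 and 949 CPM in the jejunum (-2.71 ± 0.19 SE, adjusted p = 2.02e-07). Krt18 gave 286, 240.4, 219 and 152 CPM in the liver and 37.4, 69.2, 42.0 and 52.8 CPM in the jejunum (2.14 ± 0.23 SE, adjusted p = 5.9e-06). Neither keratin overlapped between the tissues.

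Clock genes, from mice killed at the same hour, were partly level-matched. Nr1d2 (77.1 ± 11.3 against 65.8 ± 4.81 CPM; 95% interval -0.08 to 0.51) and Per2 (25.4 ± 3.68 against 32.1 ± 12.9 CPM; 95% interval -0.83 to 0.34) were level-matched. Npas2, a relative of Clock, gave 1.7, 2.6, 0.9 and 2.3 CPM in the liver and 66.3, 51.0, 52.6 and 42.5 CPM in the jejunum (-4.26 ± 0.21 SE, adjusted p = 1.08e-08), with no overlap, while Clock itself overlapped (57.8 ± 15.5 against 88.2 ± 29.7 CPM; -0.56 ± 0.27 SE, adjusted p = 0.0802). Per1 was high in library 1 of both tissues, with 19.0, 4.9, 4.1 and 4.4 CPM in the liver and 22.5, 3.0, 4.1 and 3.7 CPM in the jejunum.

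Hormone receptors also differed. Ghr, the growth hormone receptor, was 710.0 ± 71.8 against 15.2 ± 3.74 CPM (5.48 ± 0.16 SE, adjusted p = 2.52e-10), Gcgr, the glucagon receptor (240.0 ± 10.8 CPM), was listed in the liver only, and Insr, the insulin receptor, was level-matched (170.2 ± 18.5 against 136 ± 27.7 CPM; 95% interval -0.01 to 0.69).

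Nnt, a mitochondrial transhydrogenase, was highest in library 3 of the sham group in each of 4 tissues. It gave 44.8, 43.9, 195.3 and 47.6 CPM in the liver and 17, 21.6, 54.5 and 21.1 CPM in the jejunum. Subcutaneous fat gave 23.9, 56.8, 57.0 and 24.0 CPM, where library 2 was nearly as high, and muscle gave 33.8, 18.4, 125.6 and 19.9 CPM. Some jejunum libraries stood apart over several genes. Libraries 2 and 4 were higher than 1 and 3 for the lipid and detoxification genes Me1 (8.4, 241.6, 12.3 and 48.2 CPM), Ephx1 (11.9, 109.9, 14.8 and 57.0 CPM) and Gsta4 (9.9, 140.1, 13.2 and 37.4 CPM). Library 3 was high for the antigen presentation genes H2-Aa (7.3, 8.1, 926.3 and 37.3 CPM), Cd74 (15.2, 15.7, 1923.4 and 95.7 CPM) and Ciita (4.5, 2.1, 49.1 and 2.5 CPM).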
